A study of Mus musculus with 2 samples.

Results

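Keratinocyte-like mTECs are thymic epithelial cells that carry the transcript set of the outer, cornifying layers of the skin. They were chosen by a rule on the single-cell counts: a cell was a member when at least 5 of the 9 genes Krtdap, Flg, Krt1, Krt10, Cnfn, Calm4, Lypd5, Crct1 and Cysrt1 had a UMI (a unique molecular identifier, 1 counted transcript end) and Aire had under 5 UMIs. The rule found 194 members among 8534 kept cells (2.27%), where kept cells are barcodes with no fewer than 1000 UMIs and 500 genes and with less than 15% of UMIs from mitochondrial genes. Since measured values chose the members, the levels of these cells beside other cells are given as a description, with no test.

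Medullary thymic epithelial cells (mTECs) show developing T cells the proteins of other organs. Aire, a transcriptional regulator of the mTEChi stage, switches on many such genes, and some cells then pass into post-Aire mimetic states that resemble skin, tuft, secretory or other peripheral cells. In skin, keratinocytes leave the basal layer, express Krt1 and Krt10 in the spinous layer, fill with filaggrin and loricrin in the granular layer and end as dead, crosslinked, lipid-coated cornified cells. The thymic counterpart of that last state is known from the cornified whorls of the medulla called Hassall's corpuscles.

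The samples belong to a study of Z-DNA and the choice of Aire targets, and compare mTECs of mice injected with spermidine, a polyamine, or with its solvent. All animals were female wild-type C57BL/6J mice aged 4 weeks, given 7 daily intraperitoneal injections of spermidine (15 mg/kg in PBS) or of PBS alone. After depletion of CD45+ cells on beads, mTEChi and post-Aire mTEClo cells were sorted together, so the sort and the mixing of both gates can set the share of any cell state. There were 4 hashed samples in 1 sequencing run, PBS 1, PBS 2, spermidine 1 and spermidine 2. Whether a hashed sample was 1 mouse or a pool is not stated in the labels. The p-values below therefore reflect the spread among 4 hashed samples, and that spread may be technical.

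Of the 194 members, 121 were assigned to 1 of the 4 samples: 46 of 1335 kept cells in PBS 1, 31 of 993 in PBS 2, 27 of 1374 in spermidine 1 and 17 of 1007 in spermidine 2. Another 23 were hashtag doublets and 50 were hashtag negatives, of which 47 carried HT6 or HT7, hashtags that the labels give to no sample. When those tags were added to the assignment, 25 of the 121 assigned members became doublets, as did 897 of all 4709 assigned kept cells. The hashtag doublet share was 11.9% in members and 12.0% in other kept cells. The summed member UMIs were 898142, 543791, 404497 and 351576 in the order PBS 1, PBS 2, spermidine 1, spermidine 2, which is the order of 4 values throughout. With 2198006 member UMIs in all, 3 UMIs stand for 1.36 CPM (counts scaled to a common total), and no barcode appeared more than once. Members held a median of 16923 UMIs, 4700 genes and 1.42% mitochondrial UMIs, and other kept cells a median of 15921 UMIs and 2.77% mitochondrial UMIs.

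The number of rule genes per cell had no gap at the limit. Of the members, 46 had exactly 5 rule genes, 49 had 6, 46 had 7, 38 had 8 and 15 had all 9. Just outside the rule stood 72 cells with 4 rule genes, and 13 cells with 5 or more rule genes but at least 5 Aire UMIs, 9 of them hashtag doublets. Krtdap was at 3946 CPM in the members with exactly 5 rule genes and at 940.1 CPM in the cells with 4. Klk7, a corneodesmosome protease that took no part in the rule, was at 438 and 18.9 CPM on these sides of the limit. The MHC class II gene H2-Aa was at 1669 and 2733 CPM. The limit therefore cuts a count that has no gap. Among cells assigned to a sample, those with 4 rule genes also held more of some genes of other cell types. Reg3g, a secretory gene, was at 4335 CPM in them and 187 in members, and Dclk1, a tuft gene, at 855 and 140. Spink5, an epidermal gene, was at 1587 CPM in them, 2971 in members and 43.7 in cells with 5 or more Aire UMIs. Whether these cells and the members form a graded series was not tested.

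Promoters of 4 genes are printed because they cover the spinous, granular and cornified products on which the account below turns: Krtdap (chr7:30787655-30787904 on the plus strand), Flg (chr3:93273296-93273545 on the plus strand), Krt10 (chr11:99389365-99389614 on the minus strand) and Lor, the gene of loricrin (chr3:92083143-92083392 on the minus strand). Each run is the 250 bases before the RefSeq transcription start (RefSeq, GRCm38.p6, the same assembly as mm10), 5′ to 3′ on the gene's own strand. Capitals mark matches of 4 motifs on either strand, the AP-1 site TGANTCA, the grainyhead (GRHL) site AACNNGTT, the C/EBP-type site TTGCNNAA and the TATA box TATAAA.
Krtdap: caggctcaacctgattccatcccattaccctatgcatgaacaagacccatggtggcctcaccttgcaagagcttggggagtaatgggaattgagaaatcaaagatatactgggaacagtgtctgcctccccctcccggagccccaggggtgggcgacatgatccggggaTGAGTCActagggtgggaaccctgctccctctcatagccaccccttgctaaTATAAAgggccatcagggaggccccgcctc
Flg: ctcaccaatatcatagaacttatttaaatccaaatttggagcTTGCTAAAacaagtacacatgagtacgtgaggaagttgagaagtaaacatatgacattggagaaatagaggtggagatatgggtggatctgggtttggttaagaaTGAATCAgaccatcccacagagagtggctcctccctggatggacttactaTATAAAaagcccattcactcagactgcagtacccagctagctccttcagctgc
Krt10: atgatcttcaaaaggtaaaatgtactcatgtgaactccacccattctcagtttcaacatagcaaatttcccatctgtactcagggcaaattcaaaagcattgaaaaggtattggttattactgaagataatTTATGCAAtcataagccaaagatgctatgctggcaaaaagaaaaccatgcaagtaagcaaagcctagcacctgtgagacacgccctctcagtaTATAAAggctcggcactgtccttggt
Lor: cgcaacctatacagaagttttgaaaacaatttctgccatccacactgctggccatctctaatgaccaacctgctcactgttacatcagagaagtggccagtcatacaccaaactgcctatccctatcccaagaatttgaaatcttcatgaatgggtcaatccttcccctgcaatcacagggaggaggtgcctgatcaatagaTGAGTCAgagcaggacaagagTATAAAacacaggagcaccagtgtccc

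No matches overlapped. Counted from the RefSeq start, the AP-1 letters began at -81 in Krtdap, -103 in Flg and -48 in Lor. A TATA box began at -30, -53, -26 and -27 in Krtdap, Flg, Krt10 and Lor. The gene spans given below come from GENCODE M21, which starts Krtdap and Flg further upstream, at 30787896 and 93273523. The printed runs of these genes therefore end inside those spans. Flg and Krt10 also held C/EBP letters, at -208 and -119. Of the 9 rule genes, 7 were matched in the RefSeq table by symbol, and 3 of these 7 windows (250 bases before to 50 after the start) held the AP-1 letters, 3 the TATA box, 2 the C/EBP letters and 0 the GRHL letters. Among all 32851 windows of the same length, 7.81% held the AP-1 letters, 13.6% TATAAA, 10.8% the C/EBP letters and 4.2% the GRHL letters. For a list of 56 cornified envelope genes, 49 genes were matched, and 18 of 50 windows (36.0%) held AP-1 and 20 (40.0%) TATAAA. Among 21 barrier lipid genes, 17 were matched, and 1 of 17 windows held AP-1 and 1 held TATAAA. For the proteases and inhibitors of desquamation the counts were 1 and 0 of 19 windows. A match describes letters in these windows and is no evidence that a factor binds there.

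The 9 rule genes stood 68-fold to 199-fold above other kept cells, as their choice requires. Krtdap (chr7:30787896-30791097, plus strand, mm10), which encodes a secreted protein of differentiating keratinocytes, was at 9217, 9686, 9211 and 13917 CPM, and at a mean of 52.7 CPM in other kept cells. CPM set the UMIs of a gene against all UMIs summed over the same cells of a sample, and since 3′ counts record transcript ends no length correction was made. Calm4, a calmodulin-like gene of skin, was at 4863, 4224, 6215 and 6016 CPM. Krt10 (chr11:99385254-99389364, minus strand), the type I keratin of the spinous layer, was at 3954, 3672, 3375 and 3043 CPM, against 42.4 in other kept cells. Flg (chr3:93273523-93293686, plus strand), the gene of filaggrin, was at 1274, 1052, 2650 and 1596 CPM, against 14.1. Krt1 (chr15:101845426-101850794, minus strand), the type II partner of Krt10, was the most uneven of the 9, at 1082, 581, 2319 and 349.9 CPM, against 8.29. In spermidine 2, 75.6% of its UMIs lay in 1 of 17 members.

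The cornified envelope genes Cnfn (cornifelin), at 872, 833, 1674 and 811 CPM, and Crct1, at 924, 439.5, 1748 and 936 CPM, had their highest value in spermidine 1. So did Cysrt1, at 198, 191, 571 and 222 CPM, and Lypd5, of the Ly6 and uPAR family, at 219, 129, 294 and 174 CPM. Aire, limited by the rule, was at 21.2, 20.2, 24.7 and 42.7 CPM in members and at a mean of 409 CPM in other kept cells.

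Free RNA in droplets can give UMIs to cells that do not express a gene, so detection is set beside tuft-like cells (median 13864 UMIs) and thymocyte-like cells (median 5914 UMIs). Krtdap had a UMI in 96.9% of members (exact 95% interval 93.4 to 98.9), 12.6% of 2564 tuft-like cells and 13.2% of 182 thymocyte-like cells. Flg was seen in 64.9% of members, 4.52% of tuft-like and 2.75% of thymocyte-like cells. Krt1 was seen in 97 of 194 members, 10.8% of tuft-like and 1.65% of thymocyte-like cells, and Lypd5 in 57.7%, 0.195% and 0 of 182 cells. With every cell thinned to 5000 UMIs the Krtdap shares were 90.9%, 4.97% and 8.11%, and the Flg shares 59.1%, 1.69% and 2.70%, over 186 members, 2373 tuft-like and 111 thymocyte-like cells. The rule fixed the high shares of its 9 genes in members, and the other cell types show how often such UMIs occur elsewhere. Aire was capped at under 5 UMIs in all of these sets, so part of any likeness was imposed. It was close in members and tuft-like cells and lower in thymocyte-like cells. An Aire UMI was seen in 35.1%, 31.4% and 16.5% of them, and thinned values were 17.2%, 13.2% and 9.91%. Intervals and limits cover counting error only.

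**Figure D1:**
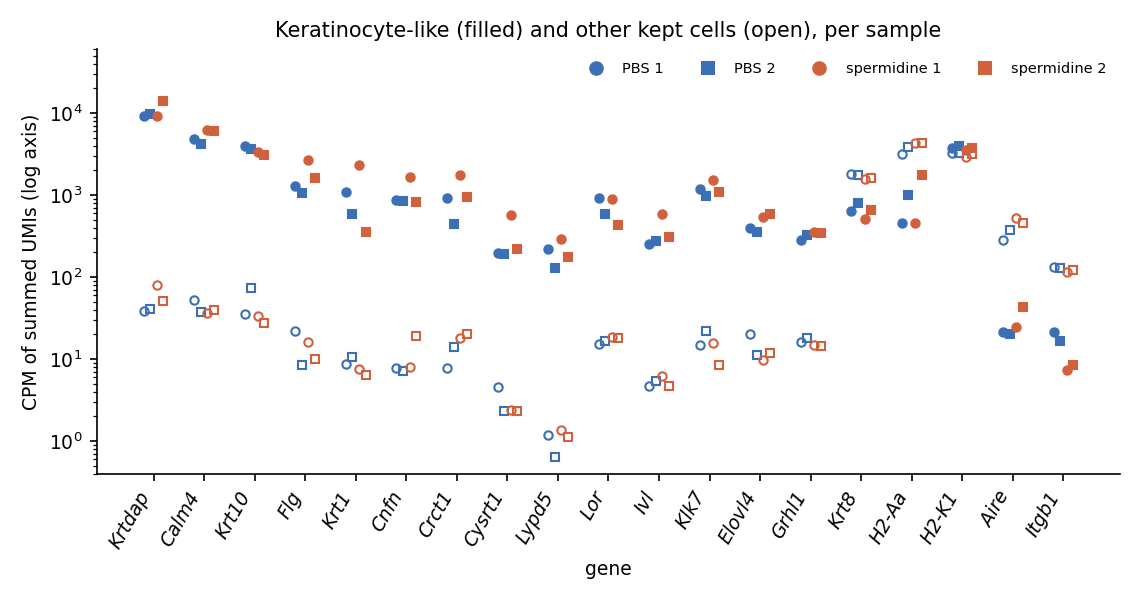
CPM (log axis) of the 9 rule genes, further epidermal genes, and Krt8, H2-Aa, H2-K1, Aire and Itgb1 in keratinocyte-like cells (filled) and other kept cells (open), 1 point per hashed sample. The rule genes and the epidermal genes Lor to Grhl1 lie higher in members in every sample, Krt8, H2-Aa, Aire and Itgb1 lie lower, and H2-K1 is close in both.

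Suprabasal genes that took no part in the rule were mostly higher in members as well. Of all 38644 genes with a UMI, 2968 (7.68%) were higher in members than in other kept cells in each of the 4 samples. Of the same genes, 25074 were higher in members in none of the 4, ties at 0 included. Over the 10436 genes with a mean of 10 CPM or more, 2592 (24.8%) were higher in all 4 and 4079 (39.1%) were lower in all 4. The counts for the lists below carry no limit on CPM. Since the rule sorted the cells, nothing is read from these shares. Of 18 suprabasal keratins and spinous layer genes, 3 were rule genes, and of the other 15, 10 were higher in all 4 samples and 0 lower. These 15 summed to 26498 CPM against 5342. Krt77 was at 2359, 1580, 2101 and 1277 CPM (26.2 in other kept cells) and Dmkn, dermokine, at 3544, 3709, 5501 and 4938 CPM (78.5). Sbsn, suprabasin, was at a mean of 1495 CPM ± 499 (SD, n = 4 samples). Krt16, a keratin of stressed epidermis, was at 2424 CPM ± 201 (SD, n = 4), against 42.2, and Krt17 at 8774 ± 1454 (SD, n = 4), against 1100. Krt6b was at 298 CPM in PBS 2 and between 8.91 and 11.4 CPM in the other samples. The mucosal keratins Krt4 and Krt13 were at 6.15 and 13.4 CPM in members, close to the 7.57 and 15.1 CPM of other kept cells.

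Cornified envelope genes split by family. The envelope is the crosslinked protein shell under the membrane of a dead keratinocyte. Of 56 listed genes, 4 of them rule genes, 19 were higher in all 4 samples, 20 were lower in all 4 and 14 had no UMI in any member. Lor was at 917, 585, 900 and 427 CPM (17.1 in other kept cells), Ivl (involucrin) at 254, 278, 583 and 310 CPM (5.23), and Hrnr (hornerin) at 573, 206, 593 and 486 CPM (9.58). The crosslinking enzyme Tgm1 was at 44.5, 53.3, 98.9 and 65.4 CPM (2.04) and Cst6, a cysteine protease inhibitor of the stratum corneum, at 5144, 4868, 4724 and 6056 CPM (297). These genes were higher in members than in other kept cells in each sample.

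The late cornified envelope (Lce) genes were close to absent. The 71 protein-coding genes of the epidermal differentiation complex (chr3:90511034-93564643, mm10) included 19 (26.8%) at 10 CPM or more and at least 4-fold above other kept cells, where 3.08% of all 21208 protein-coding genes met both limits. By family these were 5 of 7 S100-fused genes, the filaggrin type, 6 of 15 Sprr genes, 0 of 21 Lce genes and 0 of 12 S100 genes. The 19 include the rule genes Flg and Crct1, and the 5 S100-fused genes include Flg. Their values helped to choose the members. The 21 Lce genes summed to 14.4 CPM in members and to 67.9 CPM in other kept cells, and 10 of them had no UMI in 2198006. Sprr levels were uneven: Sprr1a was at 1667, 1940, 3315 and 1075 CPM, whereas Sprr2i was at 2.23, 0, 628 and 51.2 CPM. The Sprr2 genes are near-identical copies, and how reads that match several genes were counted is not given in the sources used here, so single Sprr2 and Lce values are uncertain. Outside the complex, 13 of 26 keratin genes on chromosome 15 and 5 of 27 on chromosome 11 met the same limits. So did 9 of 13 kallikreins (without the Klk1b group) and 5 of 8 IL-1 family genes. Keratins were grouped by chromosome. Chromosome 15 holds the type II keratins and Krt18, a type I keratin that did not meet the limits, and chromosome 11 the other type I keratins. The 13 include the rule gene Krt1 and the 5 on chromosome 11 the rule gene Krt10.

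**Figure D2:**
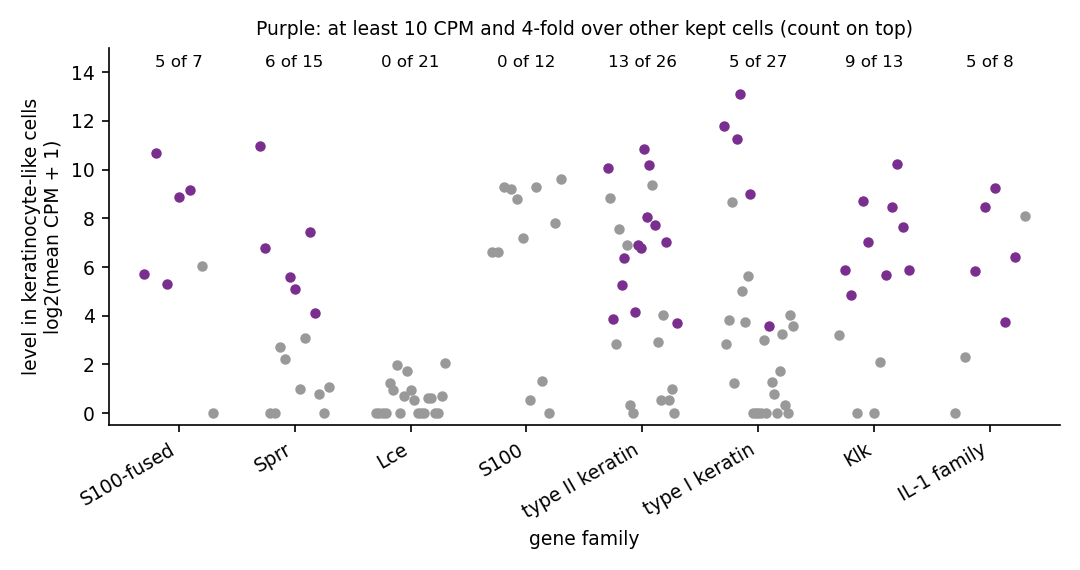
Level of every protein-coding gene of 8 families in keratinocyte-like cells, as log2(mean CPM + 1) over the 4 samples, 1 point per gene. Keratins are grouped by chromosome, so Krt18, a type I keratin, is drawn with the type II keratins. Purple points are at 10 CPM or more and at least 4-fold over other kept cells, with their count on top: 9 of 13 kallikreins, but 0 of 21 Lce genes, all of which lie near the bottom.

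The machinery that sheds and seals the outer skin layers was present. Of 21 measured proteases and inhibitors of desquamation, 18 were higher in all 4 samples. Klk7, the kallikrein that cuts corneodesmosomes, was at 1176, 982, 1525 and 1084 CPM (15.1 in other kept cells). Spink5, the kallikrein inhibitor LEKTI, was at 3040, 2839, 3335 and 2583 CPM (117), and Asprv1, the protease that processes profilaggrin, at 1931, 1624, 2949 and 1786 CPM (101). Casp14, the caspase of cornification, was less abundant, at 49.0, 38.6, 143 and 39.8 CPM (1.25). Klk5, another corneodesmosome protease, was at 49.9 CPM, and Klk12 had no UMI in members.

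Of 21 barrier lipid genes, 19 were higher in all 4 samples and 0 lower. Elovl4, which elongates very long fatty acids for acylceramides, was at 393, 349, 539 and 580 CPM (13.2). Abca12, the lipid transporter of lamellar bodies, was at 161, 193, 349 and 145 CPM (4.51). The ceramide synthase Cers3 was at 88.6 CPM and the lipoxygenases Aloxe3 and Alox12b at 44.3 and 62.3 CPM. Degs2 was the only listed gene with a lower mean in members, at 16.7 CPM against 19.2.

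Junction genes differed by isoform between members and other kept cells. Of 21 such genes, 18 were higher in all 4 samples and 2 lower, Dsg2 and Pkp2. Dsc1, the desmocollin of the upper epidermis, was at 89.1, 58.8, 51.9 and 108 CPM (0.582 in other kept cells). Dsg2, the desmoglein of simple epithelia, was at 54.6, 68.0, 27.2 and 82.5 CPM, below the 253 CPM of other kept cells. Dsp, desmoplakin, was at 2329, 2247, 2418 and 2435 CPM (295).

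Transcription factors of late epidermal differentiation were higher in members, and 22 of 33 listed factors were so in all 4 samples. Grhl1 was at 279, 329, 354 and 344 CPM (15.8 in other kept cells) and Gata3 at 171, 167, 213 and 242 CPM (9.67). Cebpb was at 818 CPM (93.7) and Pou3f1 at 103 CPM (5.96). Trp63, the master factor of stratified epithelium, was at 266, 230, 294 and 259 CPM (87.2), whereas Spib, a factor of microfold-like cells, was at 41.1 CPM (193). The 5 factors that were lower in all 4 samples were Spib, Tfap2b, Satb1, Maf and Ovol2.

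Most basal layer genes, the other end of the skin program, were lower in members than in other kept cells, but the keratins Krt14 and Krt5 were not. The listed genes summed to 997 CPM in members and to 1120 CPM in other kept cells. Of 13 listed genes, 10 were lower in all 4 samples, among them the integrins Itgb1 (13.4 CPM against 124) and Itga6 (33.2 against 181) and the hemidesmosome gene Col17a1 (2.44 against 24.0). Trp63 was the 1 gene that was higher in all 4. Krt14 was at 110, 166 and 163 CPM in the first 3 samples and at 1189 CPM in spermidine 2. Its mean was 407 CPM against 155 in other kept cells, and it was higher in 3 of 4 samples. Krt5 was at a mean of 189 CPM against 156, higher in 2 of 4 samples. Pooled over samples, Krt5 was at 244 CPM in members, 761 in the cells with 4 rule genes, 311 in secretory-like and 48.3 in tuft-like cells. Krt14 was at 306, 371, 197 and 27.0 CPM in the same order. Beside the cells with 4 rule genes, both keratins were thus lower in members. None of 24 cell cycle genes was higher in all 4 samples, 23 were lower in all 4, and their sum was 323 CPM against 1344.

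Genes of the Ly6 and uPAR family and of skin defence formed a further group. Of 14 Ly6 and uPAR genes, Lypd5 included, 10 were higher in all 4 samples, among them Ly6g6c at 961, 782, 1520 and 1087 CPM (19.1) and Ly6d at 3572 CPM (294). Of the IL-1 family, the IL-36 agonist gene Il1f6 was at 435, 351, 845 and 771 CPM (11.4) and the IL-36 antagonist gene Il1f5 at 409, 263, 396 and 336 CPM (4.80). Il1a, a classic keratinocyte cytokine, had no UMI in members, which allows up to 1.36 CPM. Defb6, a beta-defensin, was at 2837, 1944, 2504 and 6573 CPM (115).

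Members held fewer transcripts of MHC class II genes than other kept cells as a whole, but more than tuft-like cells. Pooled over samples, H2-Aa was at 799.8 CPM in members and 590.1 in tuft-like cells, and Cd74 at 2203 and 1456. Of 28 mTEC and antigen presentation genes, 21 were lower in all 4 samples. H2-Aa was at 451, 1013, 460 and 1752 CPM against 3946 in other kept cells, Cd74 at 2451 CPM against 10318, and the co-stimulatory genes Cd80 and Cd40 at 36.8 and 7.48 CPM against 79.7 and 104. MHC class I stayed close, with H2-K1 at 3724 CPM against 3144 and B2m at 4009 against 4055. Epcam was at 1307 CPM against 773, and Fezf2, the other regulator of tissue antigens in mTECs, at 372 against 312, higher in 3 of 4 samples. The simple epithelial keratins Krt8 and Krt18 were at 649.9 and 452 CPM against 1674 and 1306.

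Among the 20 genes outside all lists with the largest ratio to other kept cells, the first was Efna3, the ephrin-A3 gene, at 285, 204, 257 and 230 CPM (1.78 in other kept cells). Cyp2b19, a keratinocyte epoxygenase, was at 364 CPM ± 39.8 (SD, n = 4), Psapl1 at 523 ± 60.2 (SD, n = 4) and Calml3, another calmodulin-like gene, at 1508 ± 114 (SD, n = 4). Scel, sciellin of the cornified envelope, was at 126, 156, 153 and 159 CPM (3.31). Lgals7, the galectin of stratified epithelia, was uneven, at 1477, 1703, 7807 and 2924 CPM (57.0). These genes were picked for their ratio, which has no test.

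Markers of most other cell types summed to less in members than in other kept cells. The sums of 9 thymocyte markers were 56.8, 9.19, 19.8 and 11.4 CPM and of 9 fibroblast markers 4.45, 11, 0 and 0 CPM, with 4 fibroblast markers at 0. Airway secretory markers summed to 1433, 839, 1271 and 1149 CPM, against 2084 CPM in other kept cells. The sums of 9 tuft cell markers were 769, 660, 166 and 304 CPM, against 2993 CPM, with none of the 9 at 0. The endothelial list was the exception, at 177, 246, 158 and 156 CPM against 55.1, nearly all of it Flt1, while Cdh5, Kdr, Tie1 and Emcn had no UMI in members. The myeloid list was at 1093, 1232, 541 and 1863 CPM against 1238, nearly all of it Cst3, with Itgax, Csf1r, Ly86 and Xcr1 at 0. Both PBS values of the tuft sum were above both spermidine values. The tuft UMIs came from few cells: 17 of the 194 members had a UMI of 5 or more tuft genes, 4, 1, 0 and 1 of them in the 4 samples, and 7 were hashtag doublets (41.2%). These 17 had a median of 26224 UMIs, and the other members 16732. Without them the tuft sum was 131 CPM. Doublets of 2 cells from the same sample cannot be seen from hashtags, and no RNA-based doublet caller was used.

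Members were set beside the cell sets most like them. Spink5 was at 2971 CPM in the pooled assigned members, 1587 in the cells with 4 rule genes, 589 in secretory-like cells, 57.2 in tuft-like cells and 43.7 in cells with 5 or more Aire UMIs. Klk7 was at 1177 CPM in members and between 1.6 and 28.5 CPM in the other 4 sets. Reg3g, a gene of secretory cells, was at 187 CPM in members, 4335 in the cells with 4 rule genes and 7338 in secretory-like cells. Krt77 was at 1946 CPM in members and 121 in the cells with 4 rule genes, Ivl at 329 and 56.4, and Casp14 at 62.3 and 17.2. Trp63 was at 261, 199, 101, 37.5 and 67.4 CPM in the same order as Spink5. These sets were cut by marker counts, so the values are a description.

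Within the members, cells were clustered without the rule genes into 5 subgroups (Leiden resolution 0.5), which are described by their leading genes with no test. Subgroup 4, with 28 cells, held the late granular products: Lor was at 3626 CPM against 337 in the other members, Crct1 at 3179 against 312, Klk7 at 3311 against 722 and Lypd5 at 718 against 111. Flg2 was at 239 CPM against 19.4 and the corneodesmosin gene Cdsn at 430.1 against 65.8, while H2-Aa was at 124 against 915 and Krt18 at 69.2 against 673. Its cells had a UMI of a median of 8 rule genes, and those of the other subgroups of 6. Among the 5 subgroups, Lor, Klk7 and Lypd5 were thus highest here.

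Subgroup 2, with 30 cells, held Krt1 without Flg. Krt1 was at 2753 CPM against 469 in the other members and Flg at 89.1 against 2029. Cst6 was at 12791 CPM against 2198, Ivl at 698 against 208, and Casp14 at 254 against 13.5, with a UMI in 63.3% of cells against 7.32%. Casp14 and Flg2 went apart here: Flg2 had no UMI in subgroup 2, and Casp14 was at 6.29 CPM in subgroup 4. The leading genes also included Cstdc5 and Stfa1, of the stefin family of protease inhibitors, and Gsto1. Krt6b, a keratin of hair follicles and wounds, was among them as well, at 533 CPM, with 51.1% of its UMIs in 1 cell.

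Subgroup 3, with 16 cells, was led by tuft genes, with Dclk1 at 1965 CPM against 23.3, Avil at 849.6 against 22.1 and Gnat3 at 926 against 7.88. All 16 cells had a UMI of 5 or more tuft genes, 6 were hashtag doublets and their median was 26941 UMIs. Krtdap was still at 7533 CPM in these cells and Flg at 2261 CPM. Subgroups 0 and 1, with 65 and 55 cells, were led by genes of other tissues such as Wfdc17 and Iapp, the islet amyloid gene. Single cells weighed heavily here: 1 cell held 59.0% of the Wfdc17 and 85.7% of the Ccl5 UMIs of subgroup 0, and 37.0% of the Iapp, 98.0% of the Klk1 and 97.7% of the Hamp UMIs of subgroup 1. The pair stayed less distinct: at resolution 0.3 all 65 and 52 of the 55 cells fell with subgroup 2 into 1 cluster of 147 cells. At resolution 1 all 30 cells of subgroup 2, all 16 of subgroup 3 and all 28 of subgroup 4 stayed together, in clusters of 30, 16 and 32 cells.

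**Figure D3:**
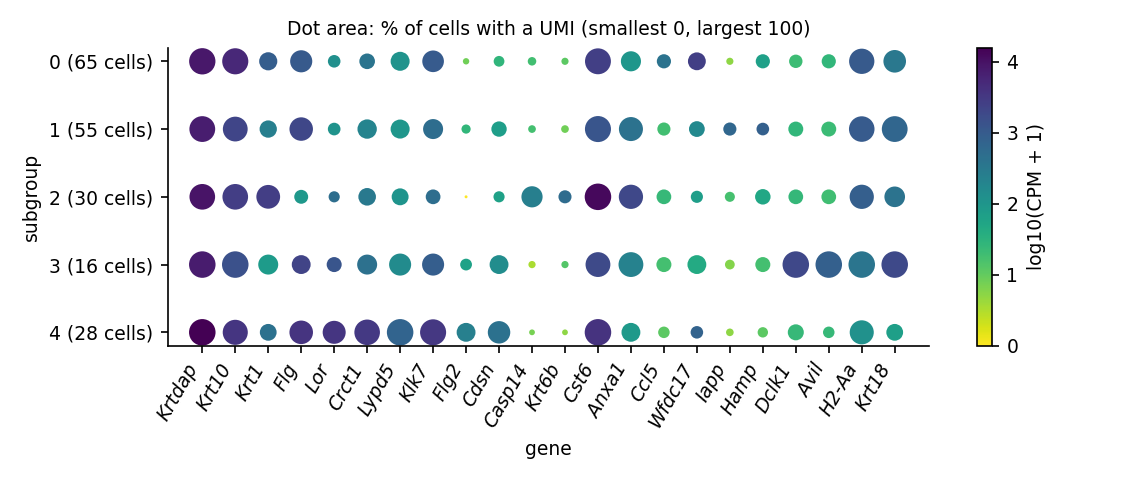
Summed level (colour, log10(CPM + 1)) and share of cells with a UMI (dot area) of 22 genes in the 5 subgroups of the 194 keratinocyte-like cells. Lor, Crct1, Lypd5 and Klk7 are darkest in subgroup 4, Krt1 and Casp14 in subgroup 2, and Dclk1 and Avil in subgroup 3.

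Levels of single genes were also set side by side across cells. Over the 194 cells, which share 1 run and differ in depth, Spearman's rho of the levels of Flg and Krt1 was -0.27. Members without Flg had to hold more of the other rule genes, so the selection itself can lower this value for a pair of rule genes. It was 0.58 for Cnfn with Cysrt1, 0.56 for Lypd5 with Klk7 and 0.68 for Krt8 with Krt18. The last pair took no part in the rule. These values describe cells and carry no p.

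The first comparison of treatments was the share of keratinocyte-like cells, which played no part in the rule. Members made up 3.45% (exact 95% interval 2.53 to 4.57) of kept cells in PBS 1 and 3.12% (2.13 to 4.40) in PBS 2. They were 1.97% (1.30 to 2.85) in spermidine 1 and 1.69% (0.986 to 2.69) in spermidine 2. Both PBS values lay above both spermidine values. The means were 3.28% ± 0.229 with PBS and 1.83% ± 0.196 with spermidine (SD, n = 2), a difference of -1.46 percentage points with p = 0.333 in the two-sided exact permutation test, the smallest p that 2 samples against 2 allow. The intervals of single samples overlapped between the groups, and they cover counting error only.

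Cells of Aire at 5 or more UMIs were left in the denominator, and among kept cells under that limit the shares were 4.19%, 4.10%, 3.02% and 2.48%. The difference had the same sign under all 11 other settings, from -1.26 to -1.62 points. The hashtags without a label, HT6 and HT7, held members too: 27 of 1187 cells (2.27%) and 20 of 1219 (1.64%).

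**Figure D4:**
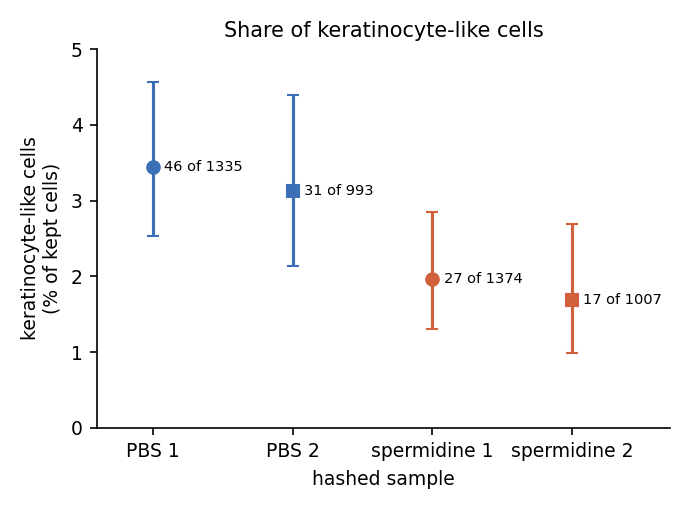
Keratinocyte-like cells as a percentage of kept cells in each hashed sample, with exact 95% binomial intervals and the counts beside the points. Both PBS samples (3.45% and 3.12%) lie above both spermidine samples (1.97% and 1.69%), with overlapping intervals.

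The number of rule genes per member is cut from below by the rule, so it is described with no test. Thinned to 5000 UMIs per cell, members had a UMI of 5.82, 5.59, 5.65 and 5.47 rule genes on average. The means were 5.70 ± 0.167 and 5.56 ± 0.130 (SD, n = 2), a difference of -0.142. The groups overlapped, and under the assignment with 6 hashtags the difference was 0.238.

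Gene levels in members were then compared between treatments, a contrast the rule did not use, with edgeR's quasi-likelihood test on the UMI sums of the 4 samples. Of 7216 genes tested, 2 passed the adjusted p of 0.05 (0.0277%), both lower with spermidine, and 416 had an unadjusted p under 0.05. St18, a zinc finger factor gene, was at 187, 184, 12.4 and 19.9 CPM, a log2 fold change of -3.45 (SE 0.333, adjusted p = 0.0224). Slit2, a guidance factor gene, was at 119, 90.1, 7.42 and 5.69 CPM, a log2 fold change of -3.88 (SE 0.447, adjusted p = 0.0469). Slit2 falls outside the rule for named genes and was chosen after its values were seen.

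Few cells held the UMIs of both genes. In PBS 2, 1 cell held 99.0% of the St18 UMIs and 1 cell 95.9% of the Slit2 UMIs, whereas in PBS 1 St18 was seen in 10 members with 47.0% of its UMIs in the top cell. By edgeR both genes also passed without PBS 2 (St18 -3.46, adjusted p = 0.000282, and Slit2 -4.06, adjusted p = 0.000583). With the count of each cell capped St18 passed (-3.25, adjusted p = 0.00731) and Slit2 was not among the calls. Both genes also led subgroup 3, the members with tuft genes, with St18 at 1172 CPM there and at 16.1 CPM in the other members. Without the 17 members with 5 or more tuft genes, neither St18 nor Slit2 reached the filter on low counts. That setting was chosen after seeing the data.

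No gene of the epidermal lists passed the test. The 5 smallest p of higher genes belonged to Il1f6, Lyz2, Tprg, Sptssa and Ggct. Il1f6 had a log2 fold change of 1.11 (SE 0.205, adjusted p = 0.302), with both spermidine values above both PBS values. Sptssa, a subunit of serine palmitoyltransferase, the first enzyme of sphingolipid synthesis, was at 380, 351, 729 and 597 CPM (adjusted p = 0.368), and Tprg at 155, 169, 307 and 310 CPM (adjusted p = 0.341). Over all genes tested, 13.2% had both spermidine values above both PBS values and 22.2% had both below.

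On the lower side St18 was followed by Dclk1, Reg3g, Plac8 and Pde4d. Dclk1, the tuft cell kinase gene, was at 178, 224, 27.2 and 39.8 CPM (log2 fold change -2.51, adjusted p = 0.0543), with 93.4% of its PBS 2 UMIs in 1 cell. Reg3g, a secretory lectin gene, was at 222, 313, 49.4 and 65.4 CPM (-2.14, adjusted p = 0.0740). Pde4d, a cyclic AMP phosphodiesterase gene seen in 29, 25, 15 and 13 members, was at 1153, 1298, 438 and 555 CPM (-1.23, adjusted p = 0.230). None of these passed the threshold.

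With all 4 samples, median fold changes of the epidermal lists lay above 0, and they moved with single samples. The median log2 fold change was 0.61 for the 9 rule genes (8 of 9 positive), a description, since their values helped to choose the members. It was 0.53 for cornified envelope genes (21 of 24 tested), 0.39 for barrier lipid genes (16 of 19) and 0.35 for suprabasal genes (12 of 14). Over all genes it was 0.006 (3648 of 7216). None of these genes was called, and both spermidine values were above both PBS values for 4 of 9, 9 of 24, 4 of 19 and 5 of 14 of them, beside 13.2% of all genes. Outside the epidermal lists the median was 0.18 for interferon-stimulated genes (15 of 21) and 0.15 for mTEC and antigen presentation genes (16 of 23). It was -0.25 for microfold genes (2 of 6). Without spermidine 1 the medians were 0.29 for rule genes, 0.22 for cornified envelope genes, 0.11 for barrier lipid genes and 0.25 for suprabasal genes. Without spermidine 2 they were 1.04, 0.94, 0.58 and 0.026, the last with 9 of 17 suprabasal genes positive. In the other epidermal lists, leaving out spermidine 1 moved desquamation genes from 0.22 to -0.052 and transcription factors from 0.19 to 0.0043. It moved alarmin genes from 0.46 to 0.22 and junction genes from 0.28 to 0.46. Leaving out spermidine 2 moved Ly6 and uPAR genes from 0.025 (6 of 12 positive) to -0.59 and basal genes from 0.21 to -1.02. The cornified envelope and suprabasal lists share 7 of their genes with the rule. Their medians and counts include these genes, so they are in part a description too. Members also fell into the subgroups unevenly: subgroups 2 and 4 held 16 of 27 members in spermidine 1 (59.3%), and 15 of 46, 9 of 31 and 5 of 17 in PBS 1, PBS 2 and spermidine 2. The part of this make-up in the medians was not tested. Krt1 shows the dependence best, at a log2 fold change of 0.74 with all samples and -1.15 without spermidine 1.

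Single values in these lists ran both ways. Flg, a rule gene and so given as a description, had a log2 fold change of 0.94, and 48.7% of its UMIs in spermidine 1 lay in 1 cell. Elovl4 had 0.66 (adjusted p = 0.594) and Dmkn 0.60 (adjusted p = 0.568). Kprp, a proline-rich envelope gene, was lower, at 35.6, 36.8, 4.94 and 11.4 CPM (-2.08, adjusted p = 0.534), and Krt10 was at -0.18, with both spermidine values below both PBS values. All 7 tested tuft genes had both spermidine values below both PBS values, at a median of -1.41, where 22.2% of all genes had both below. Without the 17 members with tuft genes 2 of the 9 tuft genes were tested, 1 higher and 1 lower, at a median of -0.48. Polyamine genes had a median of 0.08, with 8 of 16 positive, and Smox, spermine oxidase, was at 143, 131, 176 and 179 CPM (0.45, adjusted p = 0.9).

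**Figure D5:**
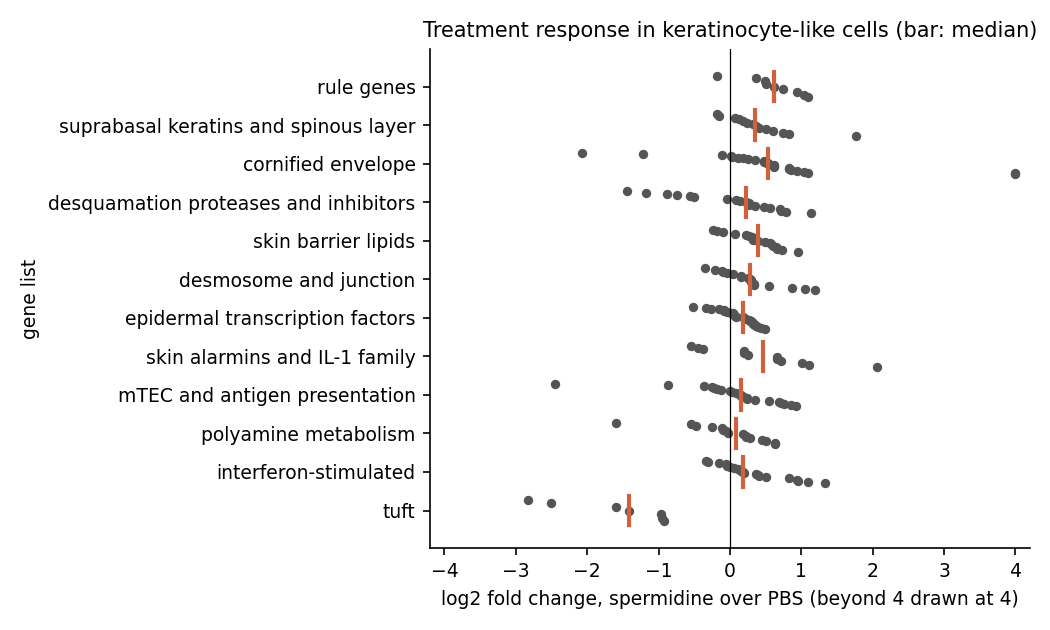
Log2 fold change of spermidine over PBS in keratinocyte-like cells for each tested gene of 12 lists (points) with the list's median (bar). Medians of the rule genes and the 7 epidermal lists drawn lie between 0.19 and 0.61 and that of the tuft list at -1.41. The basal list (median 0.21) and the Ly6 and uPAR list (median 0.025) are not drawn. No listed gene passed the threshold, and Sprr2i (7.80) and Sprr2d (4.15) are drawn at 4.

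Whether the response of members differed from that of all other kept cells was tested as an interaction over 8 sums, with the hashed sample as a block. Of 20587 genes tested, 113 passed (0.549%), 77 lower and 36 higher in members, and 6 passed with DESeq2. The split was 37 lower and 38 higher without the members with tuft genes, and 56 lower and 69 higher without spermidine 1. For 68 of the 113 at least 2 samples had UMIs in 5 or more members, and for 85 of them 1 member held over 50% of a sample's UMIs. The smallest p belonged to Serpinb3a, a serpin gene, at 155, 108, 14.8 and 0 CPM in members and at 7.36 CPM or less in other kept cells (log2 difference -5.76, adjusted p = 2.78e-15). No sample had Serpinb3a UMIs in 5 or more members. Reg3g followed, with a difference of -2.29 (adjusted p = 4.5e-12), and St18 with -2.92 (adjusted p = 1.38e-11). The St18 difference turned to 1.05 with 6 hashtags and to 1.31 without the members with tuft genes (adjusted p = 1 in both).

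Of the higher genes, Crabp2, a retinoic acid-binding protein gene of skin, was at 119, 123, 163 and 526 CPM in members and at 17.8, 36.0, 13.3 and 29.1 CPM in other kept cells (log2 difference 1.62, adjusted p = 0.000334). Akr1c18 had 2.60 (adjusted p = 0.00125) and Bglap3 2.08 (adjusted p = 0.00138). In the sample where 1 cell weighed most, that cell held 80.5%, 83.3% and 86.4% of the UMIs of Crabp2, Akr1c18 and Bglap3. For Bglap3 this sample was not spermidine 2. All 3 genes had their highest member value in spermidine 2. Without spermidine 2 none of them passed (adjusted p = 0.112, 0.995 and 0.527), and none passed with DESeq2 (adjusted p = 0.979 for Crabp2 and 1 for the others). Among barrier lipid genes Elovl4 had a difference of 1.08 (adjusted p = 0.0347) and Them5, a thioesterase gene, 1.80 (adjusted p = 0.0155), although its member values overlapped, at 89.1, 95.6, 178 and 68.3 CPM. Krt77 had -1.17 (adjusted p = 0.00239), Klk6 -1.48 (adjusted p = 0.000866) and Slurp1, a secreted Ly6 protein gene of skin, -1.56 (adjusted p = 0.000115). The member values of Krt77 overlapped between the groups too. How these list genes fared under the other settings was not examined. The median over all genes tested was -0.16. Flg and Cysrt1, whose member values helped to choose the cells, stood at 0.93 and 1.41 and are given as a description.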

How the data were processed

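The expression of single mTECs was measured in 1 droplet-based 10x 3′ v3 library with antibody hashtags. The deposited matrix holds raw UMI counts per gene and hashtag, not normalized, and per the file headers Cell Ranger 7.1.0 made it; the submitters' processing notes name mm10, bcl2fastq and Seurat. It covers 55487 genes, 15 hashtags, 12139 barcodes and 158263030 gene UMIs. Filters on UMIs, genes and mitochondrial share (barcodes can fail several) excluded 589, 1712 and 3078 barcodes and left 8534.

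Hashtags were assigned with HTODemux of Seurat 5.3.0 (positive quantile 0.99) over the 4 tags that the labels name, which gave 4709 assigned cells, 1027 doublets and 2798 negatives among kept cells. Tag doublets were left out of all sample values, and no RNA-based doublet caller was run. UMIs of the assigned members were summed per sample and tested with edgeR 4.0.16 (TMM, quasi-likelihood test, minimum count 10, minimum total 15, Benjamini-Hochberg adjusted p of 0.05), with DESeq2 1.42.0 as an alternative. In R 4.3.3 the interaction was fitted over the member and other sums of all 4 samples. Shares were compared by exact permutation with scipy 1.17.1, and subgroups came from scanpy 1.11.5 without the rule genes. CPM come from plain UMI totals. Scripts were tested on simulated data. Tuft-like cells had a UMI of at least 5 of 9 tuft genes, and secretory-like cells of at least 3 of the secretory genes. Both sets and the thymocyte-like cells were limited to under 5 Aire UMIs, as the members were.

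The members and gene lists were chosen with earlier results of these data known. Named genes were the rule genes with Aire, members of fixed lists, the 20 genes outside the lists with the largest ratio at 50 CPM or more in all 4 samples, and the smallest p-values in each direction (5 for treatment, 2 per list, 3 for the interaction). Treatment genes among them needed UMIs in at least 5 cells of 2 samples. Alternatives left out each sample, used 6 hashtags, a margin rule for hashtags, 6 rule genes, no low-count filter, capped counts or a replicate block. Leaving out the members with tuft genes was added after seeing the data. With 4 summed libraries of 351576 to 898142 UMIs, precision is limited by the number of samples and of cells. Results on a few genes are not reported here.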

Additional observations from a re-analysis of the deposited data

Results flagged for a closer look

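The spermidine response differed between keratinocyte-like and other kept cells for 113 genes by the edgeR interaction test. The 3 with the smallest p on the lower side were Serpinb3a, with a log2 difference of -5.76, Reg3g with -2.29 and St18 with -2.92. The 3 on the higher side were Crabp2 with 1.62, Akr1c18 with 2.60 and Bglap3 with 2.08. In each of the 6 genes 1 member held over 50% of a sample's UMIs.

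The St18 difference turned to 1.05 with 6 hashtags and to 1.31 without the members with tuft genes. With 6 hashtags the log2 differences of Crabp2 and Akr1c18 were 0.08 and 0.26. Without PBS 2 Crabp2 had an adjusted p of 0.739 by edgeR, and without PBS 1 Akr1c18 had 0.322 and Bglap3 0.0504. With 6 or more rule genes Reg3g was at -0.80 with an adjusted p of 0.507. The part of single cells in these differences was not tested beyond these settings.

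Among cells of the hashtags HT6 and HT7, which the labels give to no sample, 47 cells met the rule for keratinocyte-like cells. These cells entered no comparison of treatments.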

How the results depend on the processing

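The share of keratinocyte-like cells kept its direction under all 11 other settings (-1.26 to -1.62 points), and no setting could reach p under 0.05. The number of rule genes per cell changed sign with 6 hashtags (0.238). Genes that passed for treatment in members numbered 2, and 11 with DESeq2, 156 with no low-count filter, 0 with 6 hashtags (359 at an unadjusted p under 0.05 in edgeR), 1 with the margin rule, 1 without the members with tuft genes, and 22 to 67 with 1 sample left out (22 without PBS 2, 40 without PBS 1, 50 without spermidine 1, 67 without spermidine 2), where the lone sample is assumed to vary like the others. St18 and Slit2 were among the calls of DESeq2, of no filter and of each left-out sample. With the replicate number as a block 16 genes passed. The labels do not say that samples with the same number are paired. Their deviations from the group means had a correlation of -0.0114 over genes. This value cannot exclude a pairing, since counting noise in sums of few cells can mask it. Interaction calls numbered 113, and 6 with DESeq2, 52 with 6 hashtags, 75 without the members with tuft genes and 66 to 207 with 1 sample left out (66 without PBS 2, 72 without PBS 1, 207 without spermidine 2). The median interaction over all genes was -0.16 in edgeR and 0.02 in DESeq2. The St18 interaction was 1.05 with 6 hashtags and 1.31 without the members with tuft genes. Krt1 for treatment was -1.15 without spermidine 1 and up to 1.54 without spermidine 2. The cause was not tested. Of the other values of single genes, 234 stayed on their side of the threshold, 33 newly passed and 13 no longer passed. At 17 to 46 members per sample, a gene at few UMIs can be set by 1 cell.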

Other observations

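Members also differed in level from other kept cells in genes of cell death, stress and polyamine breakdown, which are given as values with no test. Gsdma, a gasdermin (a pore-forming protein) of skin, was at 148, 186, 163 and 196 CPM in PBS 1, PBS 2, spermidine 1 and spermidine 2, against 26.3 CPM in other kept cells. Gsdmc was at 22.3, 49.7, 76.6 and 22.8 CPM against 0.616, while Gsdmd was at 12.4 CPM against 39.0. Ripk3, the necroptosis kinase gene, had no UMI in members, and the Z-nucleic acid sensor gene Zbp1 was at 49.0 CPM against 50.5.

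The small heat shock gene Hspb1, abundant in differentiating keratinocytes, was at 2228, 1622, 2381 and 2904 CPM against 234. Of 30 interferon-stimulated genes, 16 were higher in members in all 4 samples and 7 lower. Isg15 was at 361 CPM ± 49.5 (SD, n = 4) against 71.2, whereas the chemokine genes Cxcl9 and Cxcl10 were at 20.9 and 54.8 CPM against 258 and 399. Of 26 polyamine genes, 4 were higher in all 4 samples and 15 lower. The oxidases that break polyamines down were among the higher ones, with Smox at 157 CPM against 25.9 and Paox at 39.6 against 8.03, while Odc1, the enzyme that starts polyamine synthesis, was at 88.0 CPM against 131.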
